A study of Homo sapiens with 6 samples.

Results

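The genes described here share a stretch of chromosome 6 and no pathway. They are the 104 genes, of 23228 in the tables, whose exons all lie between positions 42170000 and 52560000 of chromosome 6 in hg19, a segment of 10.39 Mb on the short arm, with MCM3 left out by the rule. The segment was marked out because its genes were lower in PELP1-KD than in control libraries, so its members were selected on the fold changes and normalised reads of this contrast. These are given as a description without a test of the segment, and the rest of chromosome 6 (879 genes) is the comparison.

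RNA was sequenced from cells labelled Hep3B, an established human hepatocellular carcinoma (HCC) line, in 3 control libraries and 3 libraries labelled PELP1-KD, which are the whole series. Control cells carried a non-targeting short hairpin RNA (shRNA), and PELP1-KD cells carried an shRNA against PELP1, both delivered by lentivirus. PELP1 is a scaffold protein that serves as a coregulator of nuclear receptors and as part of a complex in ribosome assembly. The labels name a pair of PELP1 shRNAs, and the sample titles of the PELP1-KD libraries name shRNA 1. The count columns of the 3 control libraries carry the PELP1 shRNA 1 name too, followed by C and the replicate number, so the control group rests on the sample titles and treatment labels. Stable clones were selected with puromycin and pooled, and no label says that the replicates came from separate cultures, so the spread between libraries may be technical.

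The libraries held 26758363 to 34456542 reads on genes, and the SE of a member's log2 fold change had a median of 0.068. PELP1 itself was at 4893, 4914 and 5101 normalised reads in control and at 4421, 4825 and 4840.2 under the PELP1-KD label, a log2 fold change of −0.08 (standard error, SE, 0.04). Its ranges did not overlap, but the difference was not called by edgeR's quasi-likelihood test (adjusted p = 0.101). The labels rather than PELP1 RNA thus define the groups. The paper reports lower PELP1 protein in its Hep3B knockdown cells by Western blotting, and protein is not measured in these libraries. All 10 hepatocellular markers (among them ALB, AFP and APOB) were above 1 RPKM (reads per kilobase of exon and per 1000000 reads on genes) in control. Of 4 leukocyte markers only CD68 exceeded 1 RPKM in control. None of 3 endothelial and 4 stromal markers exceeded it in control, and the endothelial marker CDH5 had no read. Summed RPKM in single libraries went from 11472 to 11671 in control to 10428 to 10571 in PELP1-KD for the hepatocellular list, and from 22.44 to 25.05 to 31.84 to 34.30 for the leukocyte list. The sum lay between 0.433 and 0.510 for the endothelial list and between 1.38 and 1.66 for the stromal list. Single markers moved both ways. In log2 fold change, AFP (0.62), HNF4A (0.23) and FGB (0.17) were higher and ALB (−0.61), TTR (−0.61) and APOB (−0.46) lower, and of the stromal markers COL1A1 (1.44) was higher and PDGFRB (−2.13) lower. The leukocyte sum is nearly all CD68 (0.48). The part of these shifts in the values below was not tested.

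Neighbouring genes on a chromosome need not share a function. What they share is the DNA they lie on, with its copy number, its timing of replication and its chromatin, and some of them share a promoter region. Gains of the short arm of chromosome 6 are known in HCC, and VEGFA, a member of the segment, lies in the gained region. DNA was not measured in the files used here. The members range from housekeeping genes, such as the cytosolic chaperone HSP90AB1, subunits of the mitochondrial ribosome and the microRNA exporter XPO5, to genes used only in germ cells, retina or muscle.

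Many members start close to a neighbour that is read the other way. The sequences between such head-to-head start sites are shown first for a pair at very different levels (XPO5/POLH), a pair whose fold changes differed (MUT/CENPQ) and the pair that was not lower (MRPL2/KLC4), each on the plus strand of GRCh37 (the same coordinates as hg19) with GC boxes, the letters GGGCGG or CCGCCC, in capitals.
XPO5/POLH, chr6:43543813-43543877: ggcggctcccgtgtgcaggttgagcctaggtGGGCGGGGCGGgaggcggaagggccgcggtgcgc
MUT/CENPQ, chr6:49431042-49431095: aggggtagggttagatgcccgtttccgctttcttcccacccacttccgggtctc
MRPL2/KLC4, chr6:43027243-43027371: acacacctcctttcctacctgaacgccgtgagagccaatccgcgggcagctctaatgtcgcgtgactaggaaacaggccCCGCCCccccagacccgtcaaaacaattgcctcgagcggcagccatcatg
The boxes number 2, 0 and 1 in these 3 stretches, of 65, 54 and 129 bases. Among windows of the same length upstream of all genes of the tables, 28.3%, 24.5% and 40.0% held at least 1 box. A match of letters is no binding site, and its absence says only that the letters are not in the stretch.

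The 200 bases upstream of the start site follow for the member with most reads, for a member far below the others (PTK7) and for the member with the highest among those with a mean of at least 100 normalised reads, each on the strand of its gene with GC boxes in capitals.
HSP90AB1, chr6:44214649-44214848, plus strand: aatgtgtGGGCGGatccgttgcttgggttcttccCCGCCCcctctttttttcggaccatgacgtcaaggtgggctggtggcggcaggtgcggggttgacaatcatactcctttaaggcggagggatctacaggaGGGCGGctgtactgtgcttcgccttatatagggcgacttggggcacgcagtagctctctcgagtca
PTK7, chr6:43043829-43044028, plus strand: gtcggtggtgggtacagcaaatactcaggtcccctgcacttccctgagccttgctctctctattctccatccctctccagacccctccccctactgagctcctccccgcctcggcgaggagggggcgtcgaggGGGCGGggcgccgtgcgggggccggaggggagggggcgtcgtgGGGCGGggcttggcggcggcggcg
RCAN2, chr6:46293532-46293731, minus strand: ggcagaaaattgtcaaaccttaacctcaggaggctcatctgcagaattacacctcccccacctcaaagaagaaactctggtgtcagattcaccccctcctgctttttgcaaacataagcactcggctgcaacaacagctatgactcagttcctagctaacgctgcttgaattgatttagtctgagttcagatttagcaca
HSP90AB1 and PTK7 held 3 and 2 GC boxes and 13 and 18 CpG dinucleotides in these windows. RCAN2 held 0 boxes and 2 CpGs, and its window was 45.5% G and C against 58.0% for HSP90AB1 and 72.5% for PTK7. A box was found in this window in 36 of the 65 tested members (55.4%), in 52.3% of the 570 tested genes on the rest of chromosome 6 and in 58.5% of 13782 tested genes on other chromosomes. Of 22914 genes of the tables, tested or not, 45.6% held it. The difference between these shares was not tested.

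Of the 104 members, 65 had enough reads for the fit over all genes and are called tested here, and 39 had not. Among the 39, 16 had no read in any library, 15 had 1 to 10 reads over all 6 libraries and 8 had more. CRISP3, a secreted protein of glands and neutrophils, had the most of these, with 43 reads. The untested members hold whole groups of tissue-restricted genes. All 7 germ line and epididymal genes (such as PGK2, the glycolytic enzyme of sperm, and CRISP1), all 5 beta-defensin genes, IL17A and IL17F, the photoreceptor gene PRPH2, and both muscle microRNA genes MIR206 and MIR133B had too few reads. So had the liver enzyme gene GNMT, with 17 reads in all. Of the tested members, 53 had a mean of at least 100 normalised reads over the 6 libraries and 12 had fewer.

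The members together took up a smaller share of the RNA in PELP1-KD. They held 2770, 2775 and 2793 reads per 1000000 reads on genes in control replicates 1 to 3, and 2095, 2055 and 2107 in PELP1-KD replicates 1 to 3. The 3 libraries of each group lay close together and the groups did not overlap. The means were 2779 ± 12.4 and 2086 ± 27.1 (SD, n = 3 each), so PELP1-KD was at 75.05% of control. HSP90AB1 alone made up 41.59% to 41.96% of these reads in control and 37.9% to 38.8% in PELP1-KD. Without it the means were 1619 ± 3.15 and 1285 ± 8.95, or 79.3% of control. In bulk RNA, fewer cells of a type and less RNA per cell cannot be told apart.

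Gene by gene, the median log2 fold change of the 65 tested members was −0.36, with quartiles of −0.49 and −0.17. The 570 tested genes on the rest of chromosome 6 had a median of −0.08, the 13901 counted under other chromosomes 0.01 and all 14537 tested genes 0.00. These 13901 include genes with exons on alternative haplotypes of chromosome 6. Measured in single libraries against the control mean, the members' median was −0.41, −0.38 and −0.37 in the 3 PELP1-KD libraries and −0.0033, 0.0075 and 0.0078 in the 3 control libraries. No single library carried the value. Over the rest of chromosome 6 the same medians were −0.052, −0.075 and −0.11 in PELP1-KD and between −0.021 and 0.015 in control.

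A gene is called lower or higher here when its adjusted p in edgeR is below 0.05. By that measure 46 of the 65 tested members were lower, 8 were higher and 11 were not called. Of all tested genes 26.7% were called lower and 26.8% higher, 53.6% in all, and since the segment was chosen for this contrast nothing is read from the gap between these shares. All PELP1-KD libraries lay under all control libraries for 48 tested members (29.3% of all tested genes) and above them for 9 (29.5% of all tested genes). A log2 fold change under 0 was found for 54 of 65 members, against 49.3% of all tested genes. Changes past 2-fold were few, with 4 members lower (4.79% of all tested genes) and 3 higher (2.85%).

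**Figure D1:**
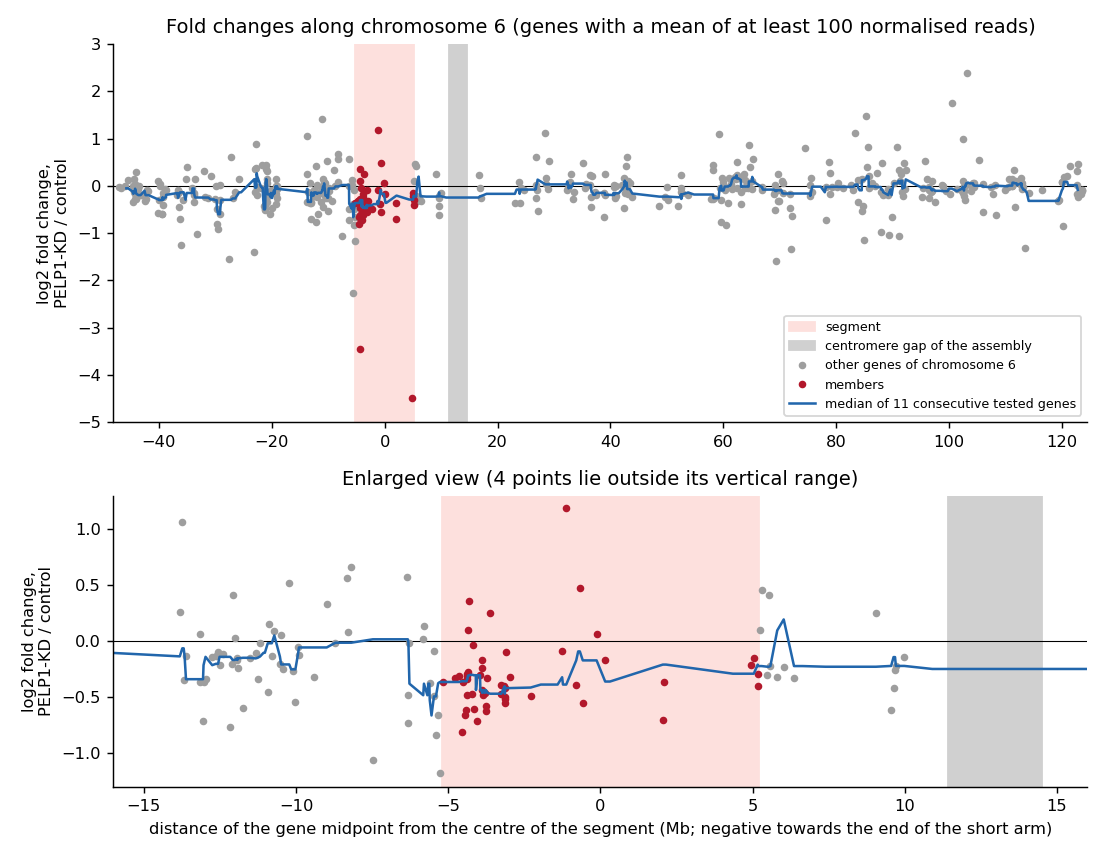
Log2 fold change of PELP1-KD over control for genes with a mean of at least 100 normalised reads, against the distance of the gene midpoint from the centre of the segment in Mb, for all of chromosome 6 (top) and around the segment (bottom). Points are genes (members in red, other genes in grey), the blue line is the median of 11 consecutive tested genes, and the pink and grey bands are the segment and the centromere gap. Over the segment the line runs between −0.47 and −0.090. It reaches −0.66 at USP49 just before the segment and 0.20 at GCLC soon after it.

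The lowered values did not stop at the segment's ends. Just inside the start lie MRPS10 (−0.36), TRERF1 (1.60) and UBR2 (−0.33), and just outside it GUCA1B (−0.13), C6orf132 (−1.17) and TAF8 (−0.66). At the other end TRAM2 (−0.15), LOC730101 (−0.40) and TMEM14A (−0.29) lie inside, and GSTA2 (0.10), GSTA1 (0.46) and GSTA4 (−0.30) outside. These are log2 fold changes, and GUCA1B, a photoreceptor calcium sensor, rests on few reads. The 30 tested genes in the 5 Mb before the segment had a median of −0.35 and the 17 in the 5 Mb after it −0.22. Among genes with a mean of at least 100 normalised reads, the medians were −0.19 before the segment (24 genes), −0.36 in it (53) and −0.22 after it (14). The low median over the 5 Mb before the segment thus rested in part on genes with few reads. That did not hold for the nearest 1 Mb, with a median of −0.51 over 14 tested genes and −0.49 over the 9 with that mean. The short arm outside the segment had −0.17 (242 tested genes) and the long arm −0.03 (328). Against both 5 Mb flanks the members' median was thus 0.14 lower on the log2 scale, against the rest of the short arm 0.19 lower and against the rest of the chromosome 0.28 lower.

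The members are spread unevenly. From MRPS10 to CDC5L, 56 genes lie in 2.24 Mb (25 genes per Mb), 43 of them tested, with a median log2 fold change of −0.36 and 33 called lower and 3 higher. From SUPT3H to C6orf141, 25 genes lie in 4.72 Mb, and the 16 tested had a median of −0.27, with 8 lower and 5 higher. The 17 genes from RHAG to IL17F include 10 without a read and only 1 tested member, PKHD1. The 5 genes from PAQR8 to TMEM14A were all tested and all under 0, 4 of them called lower. By 1 Mb windows from the start, the first 3 windows had medians of −0.35, −0.41 and −0.45 over 18, 18 and 8 tested genes. The later windows hold at most 5 tested genes each, so that their medians rest on few genes.

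Of the 53 members with at least 100 normalised reads, 32 (60.4%) had a log2 fold change between −0.6 and −0.2, that is, between 66.0% and 87.1% of control. On the rest of chromosome 6 it was 99 of 432 (22.9%) and on the other chromosomes 15.1% of 11283. These limits were set around the members' median after the values had been seen, so nothing is read from the gap between the shares. The interquartile range was 0.26 for the members, with 0.20 from MRPS10 to CDC5L and 0.49 from SUPT3H to C6orf141, and 0.34 for the rest of chromosome 6. The SD was larger over the members, 0.78 against 0.43, with PAQR8 and PTK7 far below the other members. The median was much the same at each level, with −0.34, −0.37 and −0.36 in the 22 members with the lowest, the 22 with middle and the 21 with the highest RPKM in control.

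**Figure D2:**
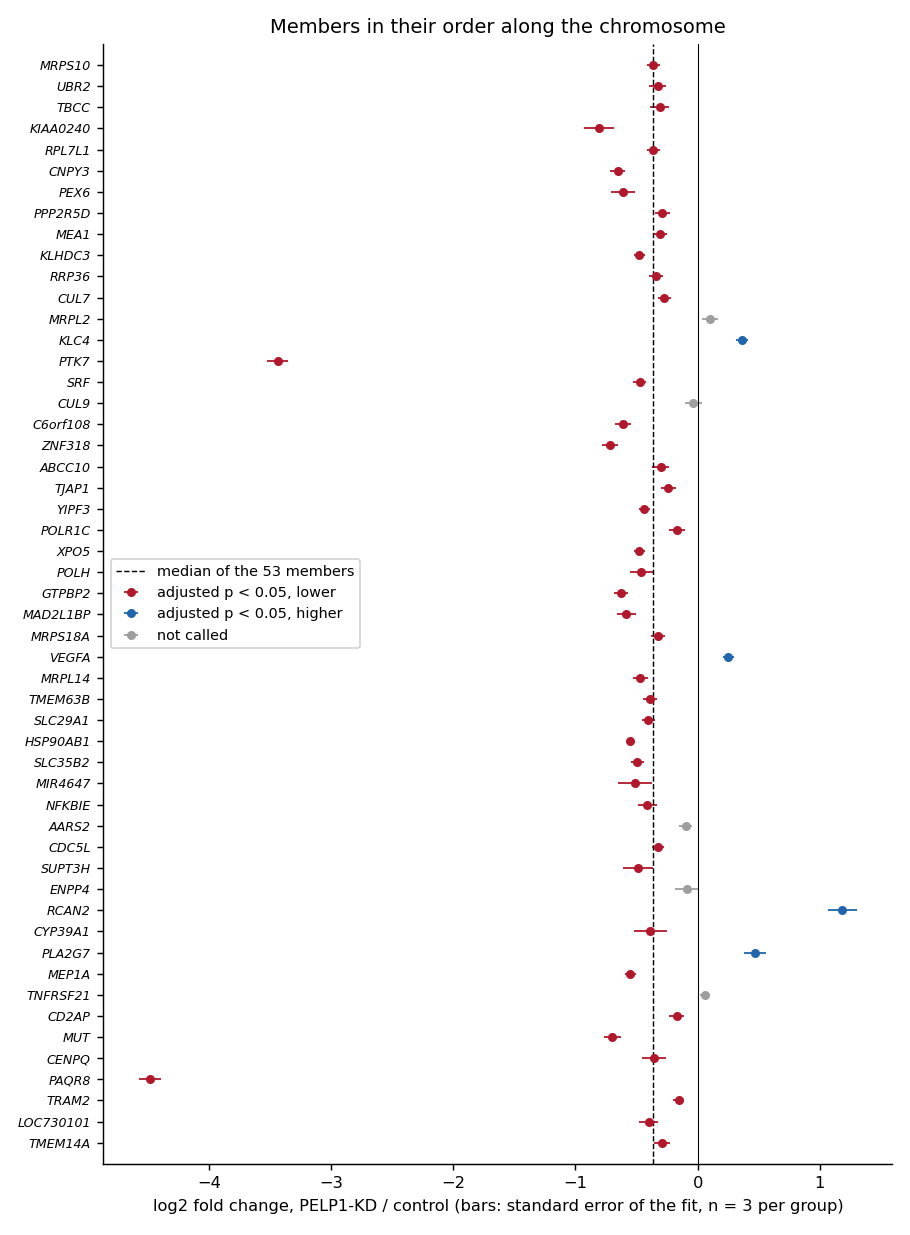
Log2 fold change of PELP1-KD over control with its standard error (3 libraries a group) for 52 of the 53 members with a mean of at least 100 normalised reads, in their order along the chromosome; red points were called lower, blue points higher and grey points not called. Most members sit close to the dashed line at the median of −0.36, with PTK7 (−3.44) and PAQR8 (−4.49) far to the left and RCAN2 (1.19) to the right.

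HSP90AB1 (chr6:44214849-44221614), the constitutive cytosolic HSP90 that folds kinases and steroid receptors, had by far the highest level of the members, 460 RPKM in control. Its normalised reads were 36458, 36443 and 37141 in the control libraries and 25206, 24308 and 25599 in PELP1-KD. The PELP1-KD libraries were all lower, at 68.3% of control, with a log2 fold change of −0.55 (SE 0.03). HSP90AB1 has near-identical pseudogene copies, which makes its level less certain. Whether reads that matched several places were shared out among them or dropped for low mapping quality was not checked. The other members of the chaperone list were CNPY3, which folds Toll-like receptors in the endoplasmic reticulum, and TBCC, a tubulin folding cofactor, and both were called lower (−0.66 and −0.31). CNPY3 went from 709, 719.8 and 720.2 normalised reads in control to 453, 450.4 and 460.4 in PELP1-KD, with little spread in either group. Here and below, signed values in brackets are log2 fold changes. Counts of calls in these lists stand beside 70.8% of the tested members and 26.7% of all tested genes called lower. As the segment was chosen for low values, nothing about a list's function is read from its count.

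All 7 listed genes for ribosome assembly and for the making or export of RNA, a list that also holds TBCC, were called lower, with a median log2 fold change of −0.34. RPL7L1, a protein of the nucleolus related to ribosomal protein L7, was at 1549, 1647 and 1507 normalised reads in control and 1183, 1292 and 1184 in PELP1-KD. RRP36, which acts in the processing of the small subunit's RNA, was at 1276, 1181 and 1329.7 in control and 1035, 943 and 1017 in PELP1-KD. Neither gene's groups overlapped, and the log2 fold changes were −0.36 (SE 0.05) and −0.34 (SE 0.06). XPO5, which carries microRNA precursors out of the nucleus, was at 2394, 2495 and 2492 in control and 1816, 1785 and 1699 in PELP1-KD, or 71.8% of control. CDC5L, a component of the spliceosome, was at 80.03% of control (−0.32). The smallest difference of the list was that of POLR1C, a subunit of RNA polymerases I and III (−0.17, SE 0.07).

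The mitochondrial list had 7 tested members, of which 4 were called lower and 3 were not called, with a median of −0.36. Proteins of the mitochondrial ribosome, which translates the proteins encoded by mitochondrial DNA, make up 4 of them. MRPL14 was at 943, 932 and 891 normalised reads in control and 639, 648 and 711 in PELP1-KD (−0.47, SE 0.06). MRPS10 was at 1164, 1184 and 1087 in control and 925, 870.5 and 873 in PELP1-KD (−0.36, SE 0.05), and MRPS18A had a log2 fold change of −0.33 (SE 0.06). The groups of these 3 genes did not overlap. MRPL2 did not follow them, with 713, 792 and 789 normalised reads in control, 815, 762 and 882 in PELP1-KD and overlapping groups (0.10, SE 0.07). AARS2, which charges mitochondrial alanine tRNA, differed little (−0.10, SE 0.05). MUT (now MMUT), the mitochondrial methylmalonyl-CoA mutase, was among the lowest, with 800.3, 773 and 793 in control and 539, 449 and 467 in PELP1-KD (61.5% of control, −0.70, SE 0.07).

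Of 4 genes of ubiquitin ligases, 3 were called lower. KLHDC3, a substrate receptor of a cullin ligase, was at 2297, 2312 and 2268 normalised reads in control and 1558, 1657 and 1726 in PELP1-KD (−0.48, SE 0.05). CUL7, a cullin scaffold, and UBR2, which recognises destabilising N-terminal residues, had log2 fold changes of −0.27 and −0.33. CUL9, the cullin most like CUL7, was at 504, 489.8 and 567 in control and 509.8, 502 and 510.4 in PELP1-KD, with overlapping groups (−0.04, SE 0.07). Its value changed sign, to 0.034, when control replicate 3 was left out.

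The list for DNA repair, mitosis and nucleotide metabolism had 5 tested members, all called lower, with a median of −0.46. Of all tested members 70.8% were called lower, so the count is not read as a result about these functions. C6orf108 (now DNPH1), a hydrolase that clears modified nucleotides, had 727, 682 and 747 normalised reads in control and 451, 483 and 481 in PELP1-KD, or 65.7% of control. MAD2L1BP, which turns off the spindle checkpoint, had 582, 499 and 611 in control and 400.3, 369 and 362 in PELP1-KD, or 66.8%. All PELP1-KD libraries were lower for both genes. CENPQ, a kinetochore protein, had a log2 fold change of −0.36 (SE 0.10), and POLH, the DNA polymerase that copies past ultraviolet lesions, −0.46 (SE 0.09).

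Among the transcription factors, SRF, the serum response factor that drives immediate early and cytoskeletal genes, was at 1611, 1503 and 1511 normalised reads in control and 1052, 1119 and 1159.6 in PELP1-KD (−0.47, SE 0.05). ZNF318, a zinc finger protein, was at 815, 836 and 786 in control and 471, 491 and 521 in PELP1-KD, or 60.9% of control. Both were lower in every PELP1-KD library. TFAP2B and TFAP2D, factors of neural crest and embryonic development, had too few reads to test. In the signalling list, PPP2R5D, a regulatory subunit of protein phosphatase 2A, and NFKBIE, an inhibitor of NF-κB, had −0.29 and −0.41 and were called lower. TNFRSF21, a death receptor, was level in control at 2198, 2189 and 2195 normalised reads and slightly above it in PELP1-KD at 2234, 2352 and 2286, a difference that was not called (0.06, SE 0.04).

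Of the 5 transporters, 3 were called lower. SLC35B2, which brings the sulfate donor PAPS into the Golgi, was at 1849.9, 1857 and 1927 normalised reads in control and 1203, 1398 and 1403 in PELP1-KD (−0.49, SE 0.06). SLC29A1, the equilibrative nucleoside transporter, was at 1550.2, 1576 and 1608 in control and 1145, 1172 and 1263 in PELP1-KD (−0.40, SE 0.05), and ABCC10, a multidrug resistance pump, had −0.30. The groups of all 3 were apart. MIR4647 lies inside SLC35B2 on the same strand and shared its reads, so its log2 fold change of −0.51 is no separate result. In the trafficking and cytoskeleton list 5 of 6 tested genes were called lower, among them YIPF3 of the Golgi (−0.44, SE 0.05). CD2AP, an adaptor between membrane and actin, had −0.17 with overlapping groups, and its call was lost when any of 4 libraries (control replicate 1 or 2, PELP1-KD replicate 2 or 3) was left out, with adjusted p between 0.0659 and 0.118 in edgeR's quasi-likelihood test.

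Of 5 listed genes of liver metabolism and the peroxisome, 3 were tested and 2 called lower. PEX6, a peroxisomal ATPase needed to import enzymes, was at 245, 259.7 and 240.4 normalised reads in control and 162, 152 and 173 in PELP1-KD, or 65.3% of control. CYP39A1, a hydroxylase of bile acid synthesis, was at 191, 144 and 148 in control and 116, 142 and 113 in PELP1-KD (−0.39, SE 0.13). The control libraries of CYP39A1 were spread widely, and its call was lost without control replicate 1 (log2 fold change −0.24), without PELP1-KD replicate 1 (−0.34) or 3 (−0.32) and in DESeq2 (adjusted p = 0.0636). SLC22A7, a liver organic anion transporter, overlapped between groups (−0.30, SE 0.19) and passed the threshold only without PELP1-KD replicate 3 (−0.53). MEP1A, a membrane metalloprotease of gut and kidney looked up once the values were known, was at 2559, 2609.9 and 2589.8 in control and 1816, 1659 and 1816 in PELP1-KD (−0.55, SE 0.04), unlike its tested neighbours PLA2G7 (0.47) and TNFRSF21 (0.06).

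**Figure D3:**
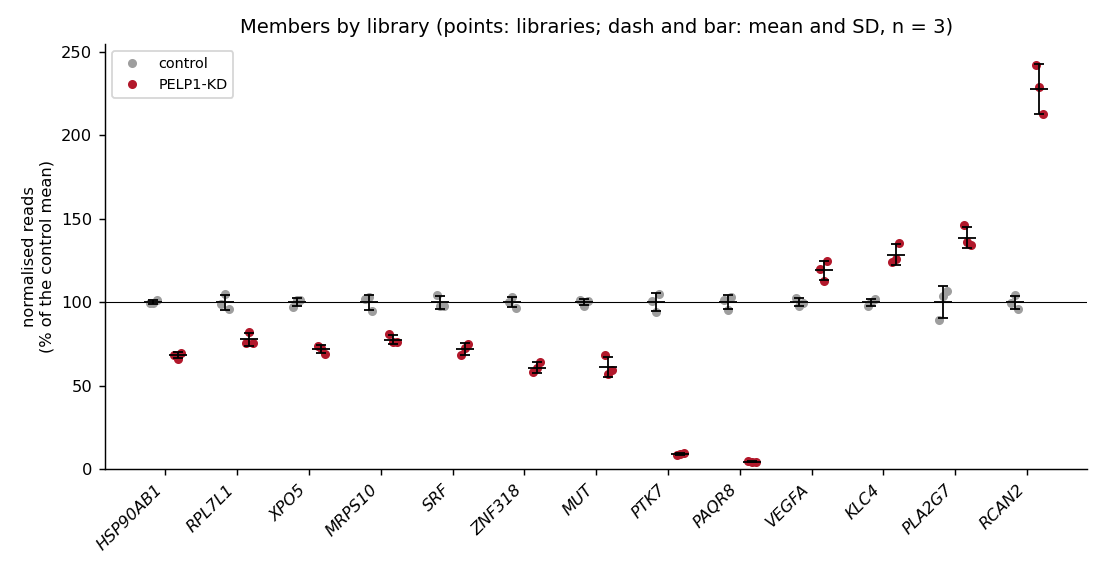
Normalised reads as a percentage of the control mean in each of the 6 libraries for 13 members (points: libraries, grey control, red PELP1-KD; dash and bar: mean and SD, n = 3). The means of the first 7 genes lie between 60.9% and 77.8% in PELP1-KD, PTK7 and PAQR8 under 10%, and VEGFA, KLC4, PLA2G7 and RCAN2 above 100%, with groups apart for every gene shown.

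PAQR8 and PTK7 lay far below the other members. PAQR8 (chr6:52226926-52272575), a membrane receptor for progestins, was at 1284, 1207 and 1309.7 normalised reads in control and 61.4, 54.8 and 52.9 in PELP1-KD. PTK7 (chr6:43044029-43129457), a receptor pseudokinase of planar cell polarity and WNT signalling, was at 912, 852 and 949 in control and 77.8, 80.5 and 90.9 in PELP1-KD. The PELP1-KD libraries of both were thus at a small part of control, 4.45% and 9.18%, with log2 fold changes of −4.49 (SE 0.09) and −3.44 (SE 0.09). The neighbours of PTK7 did not share its value. SRF, which follows PTK7, had −0.47, and KLC4, which precedes it, 0.36. Among the members with a mean of at least 100 normalised reads, the next lowest was KIAA0240 (BICRAL in newer annotation), a subunit of a SWI/SNF chromatin remodelling complex, at 234, 234 and 237 in control and 109.5, 166 and 129.8 in PELP1-KD. Its PELP1-KD libraries differed more among themselves than its control libraries (−0.81, SE 0.12).

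Among the 53 members with many reads, 4 were called higher. RCAN2, an inhibitor of the phosphatase calcineurin, was at 88.0, 92.01 and 84.9 normalised reads in control and 214, 202 and 188 in PELP1-KD, or 228% of control (1.19, SE 0.12). PLA2G7, the secreted phospholipase that breaks down platelet-activating factor, was at 201, 234 and 240.4 in control and 329, 306 and 302 in PELP1-KD (0.47, SE 0.09). The libraries of both genes fell into separate ranges. KLC4, a kinesin light chain, was at 1112, 1139.6 and 1162 in control and 1409, 1433 and 1543 in PELP1-KD (0.36, SE 0.05). VEGFA (chr6:43737946-43754223), the main growth factor of blood vessels, was at 1900.3, 1815 and 1849.6 in control and 2224, 2096 and 2309 in PELP1-KD, that is, 119% of control (0.25, SE 0.05). It was higher in every PELP1-KD library, while its tested neighbours on either side, MRPS18A and MRPL14, were lower.

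Of the 12 tested members with few reads, 4 were called higher. GPR115 (now ADGRF4), an adhesion G protein-coupled receptor, went from 0, 0.958 and 2.86 normalised reads to 15.4, 11.7 and 13.98, and TRERF1, a regulator of steroid enzyme genes, from 10.1, 18.2 and 13.4 to 38.9, 39.7 and 47.9. C6orf141 had 43.1, 46.01 and 46.7 in control and 83.95, 93.3 and 78.9 in PELP1-KD, and ENPP5, an ectoenzyme of the pyrophosphatase family, 52.3, 37.4 and 43.9 in control and 83.95, 84.01 and 61.9 in PELP1-KD. All 4 had groups that did not overlap, at levels of at most 0.849 RPKM in control. RUNX2, the master factor of bone formation, went in the other direction, with 22.9, 10.5 and 12.4 in control and 1.02, 2.33 and 7.99 in PELP1-KD. PKHD1, the fibrocystin gene of the primary cilium, had 44.0, 61.3 and 63.9 in control and 14.3, 18.7 and 10.99 in PELP1-KD, or 25.99% of control. DLK2, a relative of the NOTCH ligand-like DLK1, was not called, with 52.3, 48.9 and 36.2 in control and 8.19, 42.01 and 38.95 in PELP1-KD, where replicate 1 lay far below the others.

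A pairing of start sites was common in the segment. Pairs of genes read away from each other with at most 1000 bases between their starts numbered 8, and both genes were tested in all 8. They hold 16 of the 65 tested members (24.6%), against 9.82% of the tested genes on the rest of chromosome 6 and 11.8% on the other chromosomes. This feature was looked at after the data had been seen. Both genes were under 0 in 7 of the 8 pairs and both called lower in 6, which follows in part from choosing the segment for low values. On the rest of chromosome 6 both were under 0 in 16 of 28 pairs and both lower in 3, and on the other chromosomes in 262 and 71 of 817. The XPO5 and POLH pair, whose starts are 65 bases apart, had −0.48 and −0.46, although XPO5 was at 14.6 and POLH at 0.913 RPKM in control. GTPBP2, a GTPase picked with its value in view, and MAD2L1BP had −0.63 and −0.58. MRPL14 and the channel gene TMEM63B had −0.47 and −0.39. CYP39A1 and the mitochondrial carrier SLC25A27 had −0.39 and −0.44, and MEA1, a gene of spermatogenesis that is widely expressed, and KLHDC3 had −0.31 and −0.48.

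The partners differed more in 3 pairs. MUT and CENPQ had −0.70 and −0.36, YIPF3 and POLR1C −0.44 and −0.17, and MRPL2 and KLC4 0.10 and 0.36. MRPL2 and KLC4 were the only pair with both genes above 0. The median absolute difference between partners was 0.12 on the log2 scale, against 0.17 on the rest of chromosome 6 (28 pairs) and 0.17 on the other chromosomes (817 pairs). With a mean of at least 100 normalised reads for both partners it was 0.17 over 7 pairs, 0.22 and 0.14, so no order held across the levels.

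**Figure D4:**
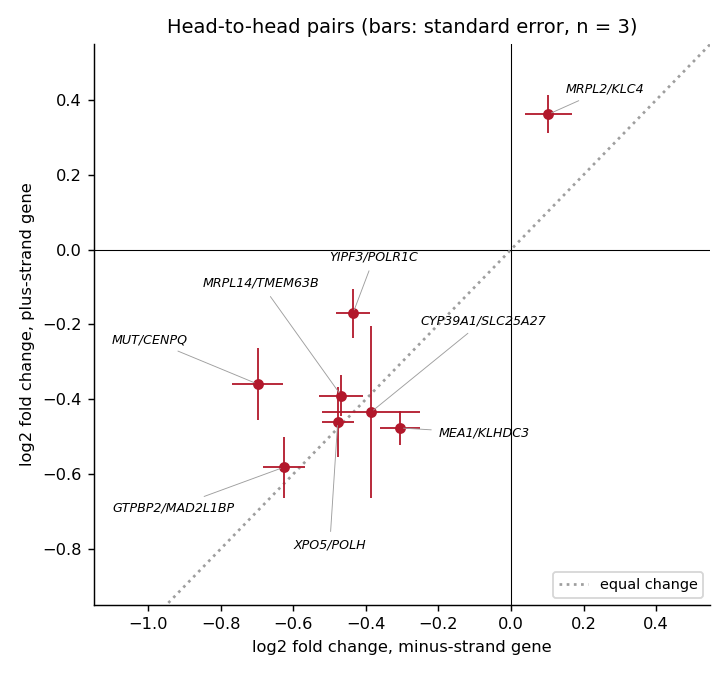
Log2 fold change of the plus-strand gene against that of the minus-strand gene for the 8 head-to-head pairs of the segment, with standard errors (3 libraries a group) and a dotted line of equal change. The points of 7 pairs lie in the lower left, and MRPL2/KLC4 lies alone in the upper right.

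Relatives of the members elsewhere in the genome are set beside them here. The segment was chosen for low values and the relatives were not. Nothing is therefore read from a member lying lower than its relatives. Of the mitochondrial ribosomal proteins, 72 relatives outside the segment had a median log2 fold change of 0.03 and a lowest value of −0.35, with 17 called lower, 9 higher and 46 not called. The 4 in the segment had a median of −0.34, and MRPL14 (−0.47) and MRPS10 (−0.36) lay under every relative, MRPS10 by less than its SE. HSP90AA1, the inducible cytosolic HSP90 at 443 RPKM in control, was at −0.01 (SE 0.03) and HSP90B1 of the endoplasmic reticulum at −0.20 (SE 0.03), against −0.55 for HSP90AB1. TRAP1, the mitochondrial member, was at −0.36 (SE 0.04). Among 5 other exportins the values ran from −0.23 to 0.11, against −0.48 for XPO5. Among 5 other UBR ligases they ran from −0.03 to 0.30, against −0.33 for UBR2, and among 3 other Y-family polymerases from −0.06 to 0.24, against −0.46 for POLH. PEX26, the membrane anchor of PEX6, had −0.05, against −0.61 for PEX6.

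In other families a relative's value lay close to the member's or below it. PPP2R5A (−0.56) lay under PPP2R5D, POLR1D (−0.79) under POLR1C, and SLC29A4 (−1.24) and SLC29A3 (−0.43) under SLC29A1. CUL7 (−0.27) was close to CUL4A (−0.26). Of the members called higher, KLC4 stood between KLC2 (0.15) and KLC3 (1.10), and VEGFA beside VEGFB (0.26) and PGF (0.69), while VEGFC, a ligand of lymphatic vessels, was at −4.64.

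**Figure D5:**
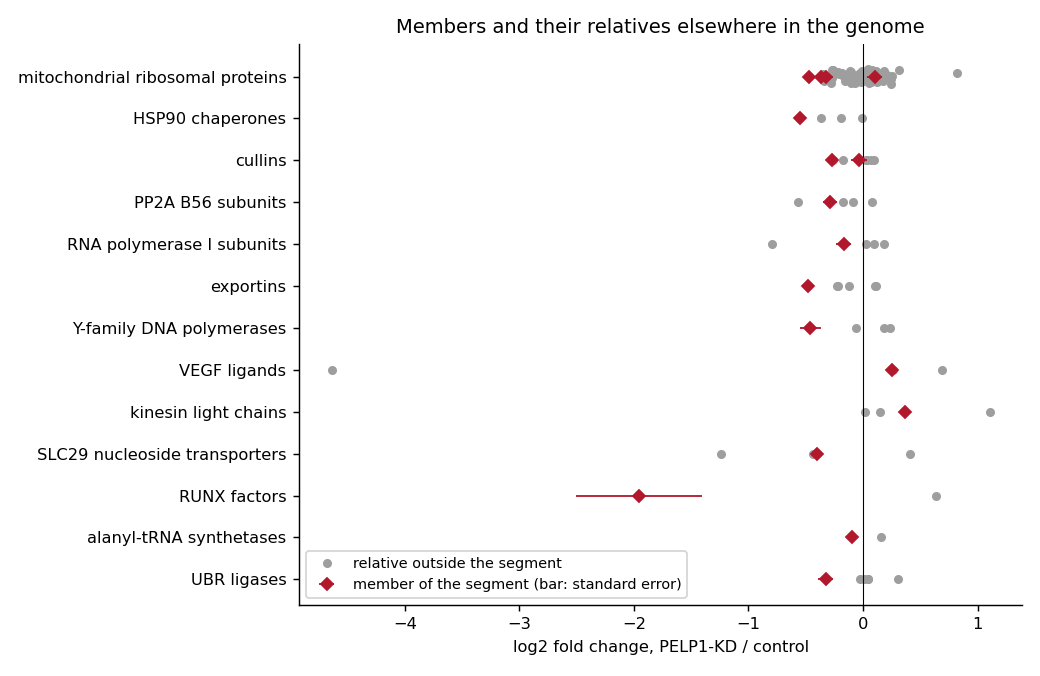
Log2 fold change of PELP1-KD over control for members of 13 gene families or complexes in the segment (red diamonds, bar: standard error) and for their tested relatives outside it (grey points). For mitochondrial ribosomal proteins, HSP90, exportins, Y-family polymerases and UBR2 the lowest value belongs to a member, while for POLR1C, PPP2R5D and SLC29A1 a relative lies lower.

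MCM3, a subunit of the helicase that opens DNA for replication, lies inside the span between IL17F and PAQR8 and was left out by the rule. It was at 5429, 5557 and 5578 normalised reads in control and 3729, 3699 and 3771 in PELP1-KD, with groups apart and a log2 fold change of −0.56 (SE 0.04). It would have been among the lower members.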

How the data were processed

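RNA-seq libraries of cells labelled Hep3B were compared, 3 control and 3 PELP1-KD, grouped by their labels. Members, gene lists and tests were chosen with earlier results of these data known. The authors deposited estimated counts per gene, not normalized, in a table for each library. Counting was set to share out reads that matched several places or genes as fractions. Whether the limit on mapping quality removed reads that matched several places was not checked. The file headers give featureCounts 1.5.0-p1 on hg19 exons, counted by strand from a mapping quality of 2 upwards, and the submitters' processing notes name HISAT2, whereas the paper's methods name TopHat2 and HTSeq. In all, 211 genes with exons on alternative haplotypes of chromosome 6 were not placed on it. Where tested, they count among the 13901 and, with enough reads, the 11283 genes given for other chromosomes. Some genes and sequences are not reported here.

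The counts were rounded and fitted with edgeR 4.0.16 (R 4.3.3; TMM, filterByExpr, glmQLFit with robust estimation, glmQLFTest), with Benjamini-Hochberg adjustment over 14537 genes. Normalised reads are reads scaled by the TMM library size. Sequences came from GRCh37 at the start sites of the tables, and newer symbols from RefSeq. Named members were the 6 with the highest RPKM, lowest and highest log2 fold change (mean of at least 100 normalised reads), up to 4 of each role list, and the 3 nearest each end. Alternatives were other size factors, DESeq2 1.42.0, other filters, each library left out, moved ends, overlapping genes or large changes left out and, added after the data had been seen, a correction for GC content and length and other comparison genes.

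Replicate numbers are given by the labels. Among 6369 genes above a log2 CPM of 5 (CPM: reads per 1000000), deviations of control and PELP1-KD libraries of the same number had correlations of 0.336, 0.247 and 0.665. Control 2 with PELP1-KD 1 had 0.417 and control 1 with PELP1-KD 2 had 0.244, so the values distinguish replicate 3 only. As each same-numbered pair was positive, the block was fitted by the labels' numbers.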

Additional observations from a re-analysis of the deposited data

How the results depend on the processing

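The members' median log2 fold change of −0.36 ranged from −0.40 to −0.35 over 18 alternatives, and 42 to 46 members were called lower over 16. With both ends moved inwards by 1 Mb the median was −0.40, and without TMM factors −0.35. Under the replicate block, with libraries paired by number, it was −0.36, with 46 members called lower and 8 higher as without it, and no call of a named gene changed. Only members with a mean of at least 100 normalised reads left 4 called higher instead of 8. When single libraries were left out, the median ran from −0.39 to −0.35, its difference from the rest of chromosome 6 from −0.31 to −0.25, and the members called lower from 42 to 45. The difference of −0.28 was −0.14 against both 5 Mb flanks and −0.19 against the short arm outside the segment, comparisons added after the data had been seen. DESeq2 called 43 members lower and 8 higher. Signs turned for CUL9 without control replicate 3 (0.034, in a range of −0.077 to 0.034 over the libraries left out) and for GUCA1B without PELP1-KD replicate 2 (0.048) or control replicate 3 (0.030), in a range of −0.34 to 0.048. Neither gene was called in these fits, and the cause was not tested. Depth limits the 39 members that were not tested and the 12 with few reads.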
